A study of Mus musculus with 15 samples.

Results

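The ATXN1[82Q] and wild type comparison took in 10 of the 15 libraries of the series, chosen by their genotype labels: 5 libraries from transgenic mice and 5 from wild type mice. The other 5 libraries, of the genotype Pcp2-ATXN1[82Q]V591A;S602D, the same transgene with substitutions, entered the fit for its estimate of spread and are not compared here. Every library came from cerebellar tissue of the FVB strain, and the labels name no treatment. All 24421 genes of the count tables were eligible, and the 15843 that passed a minimum on low counts were tested. In the transgene, written Pcp2-ATXN1[82Q], the Pcp2 promoter, which in the cerebellum is active in Purkinje cells, drives ATXN1 with a stretch of 82 glutamines. The mice also keep their own Atxn1 genes. The labels give no age, sex or pooling of animals. Nor do they say that replicates came from separate animals, so the p-values speak only to the spread between samples, which may be technical in part.

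An expanded glutamine stretch in ATXN1 causes spinocerebellar ataxia type 1, a movement disorder in which Purkinje cells, the neurons that carry the output of the cerebellar cortex, lose their function and later die. ATXN1 acts in the nucleus in a complex with Capicua (CIC), a repressor that binds short octamers in the promoters of its targets, among them genes of the ERK signalling cascade. A Purkinje cell receives glutamate from the parallel fibres of granule cells and from climbing fibres, and answers with calcium entry and with calcium released by IP3 receptors downstream of metabotropic glutamate receptors. Bergmann glia wrap these synapses, microglia prune and clear them, and both cell types change their transcripts when neurons are damaged.

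A gene was called where the edgeR quasi-likelihood test gave a Benjamini-Hochberg adjusted p under 0.05 over all genes tested. By this rule 4993 genes (31.5%) differed between the groups: 2635 (16.6%) were higher and 2358 (14.9%) lower in ATXN1[82Q]. Counts for the gene lists below are to be read against these shares, and a list near them does not stand apart from other genes. The lists were chosen with earlier results of these data known, so their counts describe the chosen members and test no cell type or pathway. Rises were the more frequent among large changes, with 371 genes (2.34%) higher and 147 genes (0.928%) lower by over 2-fold. Values are counts per 1000000 counts of the library (CPM), lists of 5 values follow replicates 1 to 5, and means are given ± SD with n = 5 in each group. Every log2 fold change is ATXN1[82Q] over wild type, and its median over all genes tested was 0.01.

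Rises and falls lay at different levels of expression. In the lowest quintile of genes by level, 22% were called higher and 3.16% lower, whereas in the highest quintile 9.02% were called higher and 32.6% lower. The 147 genes that fell by over 2-fold had a median level of 13.3 CPM in wild type, and in 138 of them no ATXN1[82Q] library overlapped a wild type library. The 371 genes that rose by over 2-fold had a median level of 0.485 CPM in wild type, and in 209 of them the groups did not overlap. Over all genes tested the groups did not overlap in 1483 genes (9.36%) that were higher and 1551 genes (9.79%) that were lower. Larger genes were more often called lower: the share rose from 8.11% in the shortest quintile by gene length to 24.3% in the longest. The median log2 fold changes of these quintiles lay near 0, at 0.0348 and -0.0188. The share called higher was also greatest in the longest quintile, at 19.5% against 15.7% in the shortest, but did not rise steadily between them.

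**Figure D1:**
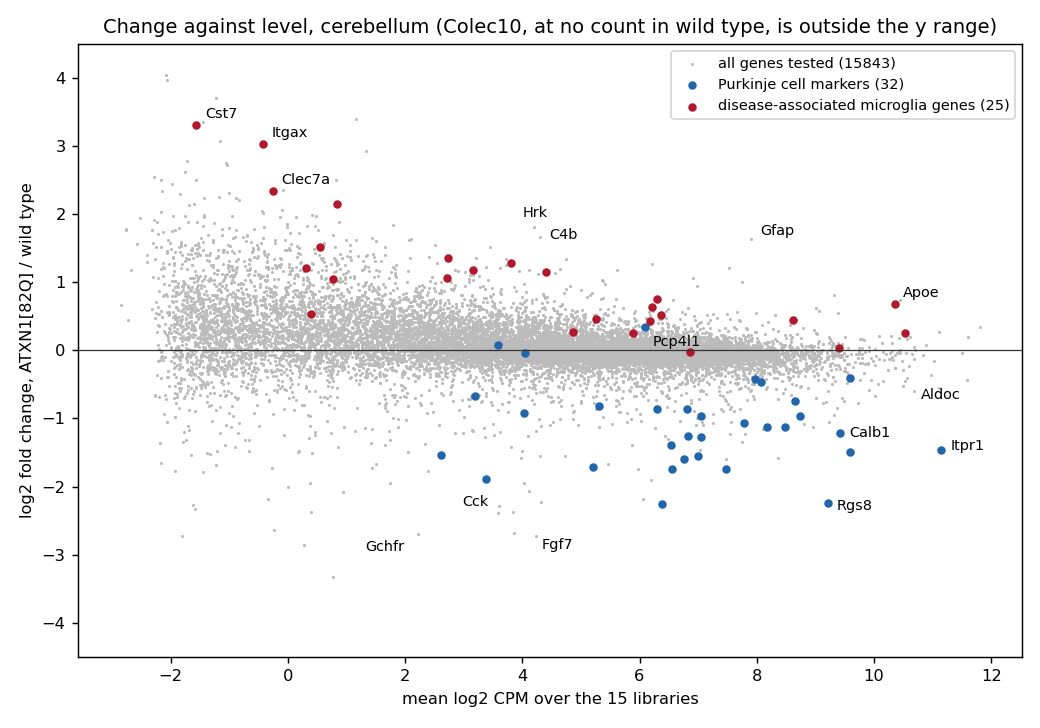
Log2 fold change (ATXN1[82Q] over wild type) of each of the 15843 genes tested, against its mean log2 CPM. The mean is over the 10 libraries compared, although the axis label reads 15. Purkinje cell markers (blue) lie mostly below 0 at middle and high levels, and disease-associated microglia genes (red) lie mostly above 0, with Cst7 at 3.31 and Itgax at 3.03.

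The libraries held 36467948 to 42818401 counts on genes in ATXN1[82Q] and 38067915 to 40640811 in wild type. Tissue from outside the cerebellar cortex was present in some of them. Ttr, the transthyretin gene that marks choroid plexus, stood at 1090, 5.48, 45.4, 4.26 and 3793 CPM in wild type and at 26.0, 3248, 7.77, 3237 and 4869 CPM in ATXN1[82Q]. Libraries rich in choroid plexus thus occurred in both groups, replicates 1 and 5 of wild type and 2, 4 and 5 of ATXN1[82Q]. Ttr was not called (log2 fold change 1.205, SE 1.664, adjusted p = 0.619), and with so large an SE this does not show that the groups were balanced. Xist, a transcript of female cells, stood at 1056, 0.188, 1315, 0.302 and 0.252 CPM in wild type. In ATXN1[82Q] it stood at 1282, 1328, 0.406, 0.339 and 0.699 CPM. Each group thus held libraries of both sexes, and whether libraries of the same sex shared an animal is not known. The mean of the 8 brainstem neuron markers that could be tested stood 0.29, 1.63, -0.10, 0.22 and 2.33 log2 units from the wild type mean in ATXN1[82Q], and 0.42, -0.52, -0.26, 0.07 and 0.30 in wild type. ATXN1[82Q] replicates 2 and 5 are therefore called the brainstem libraries below, and results that change without both of them are given both ways. In this bulk tissue, fewer cells of a type and less RNA per cell cannot be told apart.

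The mouse gene Atxn1 did not pass the test. It stood at 72.8, 63.9, 66.2, 84.8 and 63.0 CPM in wild type and 85.0, 77.6, 78.5, 75.7 and 67.1 CPM in ATXN1[82Q] (log2 fold change 0.13, SE 0.07, adjusted p = 0.193), and the groups overlapped. Without wild type replicate 4, its highest wild type library, Atxn1 was called higher (log2 fold change 0.21, adjusted p = 0.0179). These counts were assigned to the mouse gene. Whether reads of the transgene were counted with it was not tested, so the counts do not check the labels. Cic, the partner repressor, stood at 313 ± 17.2 CPM in wild type and 295 ± 17.6 CPM in ATXN1[82Q] and was not called (adjusted p = 0.163). Atxn1l, the paralog that also binds CIC, had a log2 fold change of -0.13 (adjusted p = 0.0614), and was called lower without wild type replicate 1 (-0.17, adjusted p = 0.0164) or without ATXN1[82Q] replicate 1 (-0.16, adjusted p = 0.0285). Of 14 genes for ATXN1 and its partners, all tested, 3 were lower and none higher. Rora, which encodes a nuclear receptor needed for Purkinje cell development, was the clearest of them. It stood at 408, 468, 441, 440.5 and 429 CPM in wild type and 309, 297, 304, 281 and 279.8 CPM in ATXN1[82Q] (log2 fold change -0.57, adjusted p = 1.13e-07). Every ATXN1[82Q] library lay below every wild type library for Rora. The other 2, the kinase gene Uhmk1 (-0.25) and the splicing factor gene Rbm17 (-0.14), rested on single libraries. Uhmk1 was not called when any library but ATXN1[82Q] replicates 2 and 5 and wild type replicate 1 was left out (adjusted p from 0.052 to 0.124). Rbm17 was not called when any library but ATXN1[82Q] replicates 2 and 3 and wild type replicate 5 was left out (0.0571 to 0.104), nor without both brainstem libraries (-0.14, adjusted p = 0.0951).

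Among protein-coding genes with a mean of at least 2 log2 CPM, the furthest falls were those of Fgf7, Gchfr and Trabd2b. Fgf7, a fibroblast growth factor, stood at 45.0, 47.3, 51.0, 52.8 and 44.7 CPM in wild type and 8.55, 6.26, 8.58, 7.18 and 6.02 CPM in ATXN1[82Q] (log2 fold change -2.72, SE 0.23, adjusted p = 1.16e-07). Gchfr, the feedback regulator of the first enzyme of tetrahydrobiopterin synthesis, stood at 13.1, 11.3, 11.5, 11.6 and 11.4 CPM and 1.73, 2.27, 1.67, 1.55 and 1.85 CPM (log2 fold change -2.70, adjusted p = 3.37e-07). Cck, the precursor of the neuropeptide cholecystokinin, stood at 28.5, 25.9, 30.2, 28.02 and 24.2 CPM and 5.29, 5.06, 4.13, 6.09 and 5.66 CPM (log2 fold change -2.38, adjusted p = 7.67e-09). For all 3 genes the highest ATXN1[82Q] library was far below the lowest wild type library, and the ATXN1[82Q] libraries lay close together. Trabd2b, a membrane metalloprotease that acts on Wnt ligands, fell by 2.67 log2 units from 36.6 ± 3.62 to 5.74 ± 1.15 CPM. Tnc, the matrix protein tenascin-C of Bergmann glia, fell by 2.37 log2 units from 32.8 ± 5.30 to 6.37 ± 1.73 CPM. The orphan receptor gene Gpr63 fell by 2.29, and the collagen chain genes Col5a1 and Col18a1 by 2.22 and 2.18 log2 units. Of these, Col18a1 was the most abundant in counts, at 142 ± 8.26 CPM in wild type and 31.3 ± 2.31 CPM in ATXN1[82Q].

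The rest of the 15 largest falls among protein-coding genes at 2 log2 CPM or more were the G-protein genes Rgs8 and Gng13, the tetraspanin Tspan11, the mitotic kinase Nek2, the calcium sensor of vesicle release Doc2b, the adaptor Stac and the synaptotagmin Syt6. Doc2b stood at 142 ± 4.63 CPM in wild type and 37.9 ± 1.81 CPM in ATXN1[82Q], a log2 fold change of -1.90 with an SE of 0.09. Tspan11, Nek2, Stac and Syt6 had log2 fold changes of -2.06, -1.94, -1.88 and -1.77. All 15 were chosen among genes whose groups do not overlap, so the separation of the libraries is part of their choice. Gng13 shares 51.6% of its exon bases with Chtf18, and its value (log2 fold change -2.25) is uncertain for that reason.

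Transcripts that mark Purkinje cells fell almost throughout. Of 32 markers, all tested, 29 were called lower and none higher, against 14.9% of all genes called lower, and in all 29 the groups did not overlap. Their median log2 fold change was -1.12. As the members were chosen with earlier results of these data known, these values describe the list and are no independent test. Per library, the mean of the list stood -1.04, -1.14, -1.10, -1.08 and -1.18 log2 units from the wild type mean in ATXN1[82Q], against -0.04, 0.06, 0.01, 0.04 and -0.06 in wild type. The ATXN1[82Q] libraries spread over little more than the wild type libraries did, and the 2 groups were far apart. The count of 29 stood as well without both brainstem libraries.

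Members of the list fell by very different amounts. Rgs8, a regulator that shortens G-protein signals, stood at 1188, 1326, 1380, 1357 and 1187 CPM in wild type and 291, 262, 282, 273 and 255 CPM in ATXN1[82Q] (log2 fold change -2.24, SE 0.12, adjusted p = 1.36e-09). Calb1, the calcium buffer calbindin, stood at 1011, 1045, 1113, 1085 and 994 CPM and 496, 452, 475, 449 and 388.9 CPM (log2 fold change -1.22, SE 0.07, adjusted p = 1.36e-09). Pcp2, the gene whose promoter drives the transgene, stood at 109, 103, 103, 109 and 105 CPM and 64.9, 55.6, 53.8, 60.9 and 55.3 CPM (log2 fold change -0.87, SE 0.05, adjusted p = 3.32e-09). Each of the 3 was lower in every ATXN1[82Q] library than in every wild type library, and the fall of Rgs8 was more than 1 log2 unit larger than that of Pcp2. Pcp2 shares 51.5% of its exon bases with Pet100, so its size is uncertain. Pcp4 (log2 fold change -1.12), which modulates calmodulin, and Homer3 (-1.27), a scaffold of metabotropic receptors, also share exon bases with neighbours, Igsf5 and Ddx49. At the shallow end of the list stood Plcb4 and Pvalb, with log2 fold changes of -0.43 and -0.40. Pvalb, the buffer parvalbumin, is also made by molecular layer interneurons.

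The 3 markers that were not called were Esrrb, Foxp2 and Pcp4l1. Esrrb, an orphan nuclear receptor, stood at 15.5, 17.4, 14.98, 17.4 and 18.0 CPM in wild type and 13.4, 15.3, 15.8, 18.3 and 18.4 CPM in ATXN1[82Q] (adjusted p = 0.815), with the groups overlapping. Pcp4l1, a relative of Pcp4, had a log2 fold change of 0.34 (adjusted p = 0.133) and was called higher without ATXN1[82Q] replicate 3 or without wild type replicate 5 (0.44 and 0.45).

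**Figure D2:**
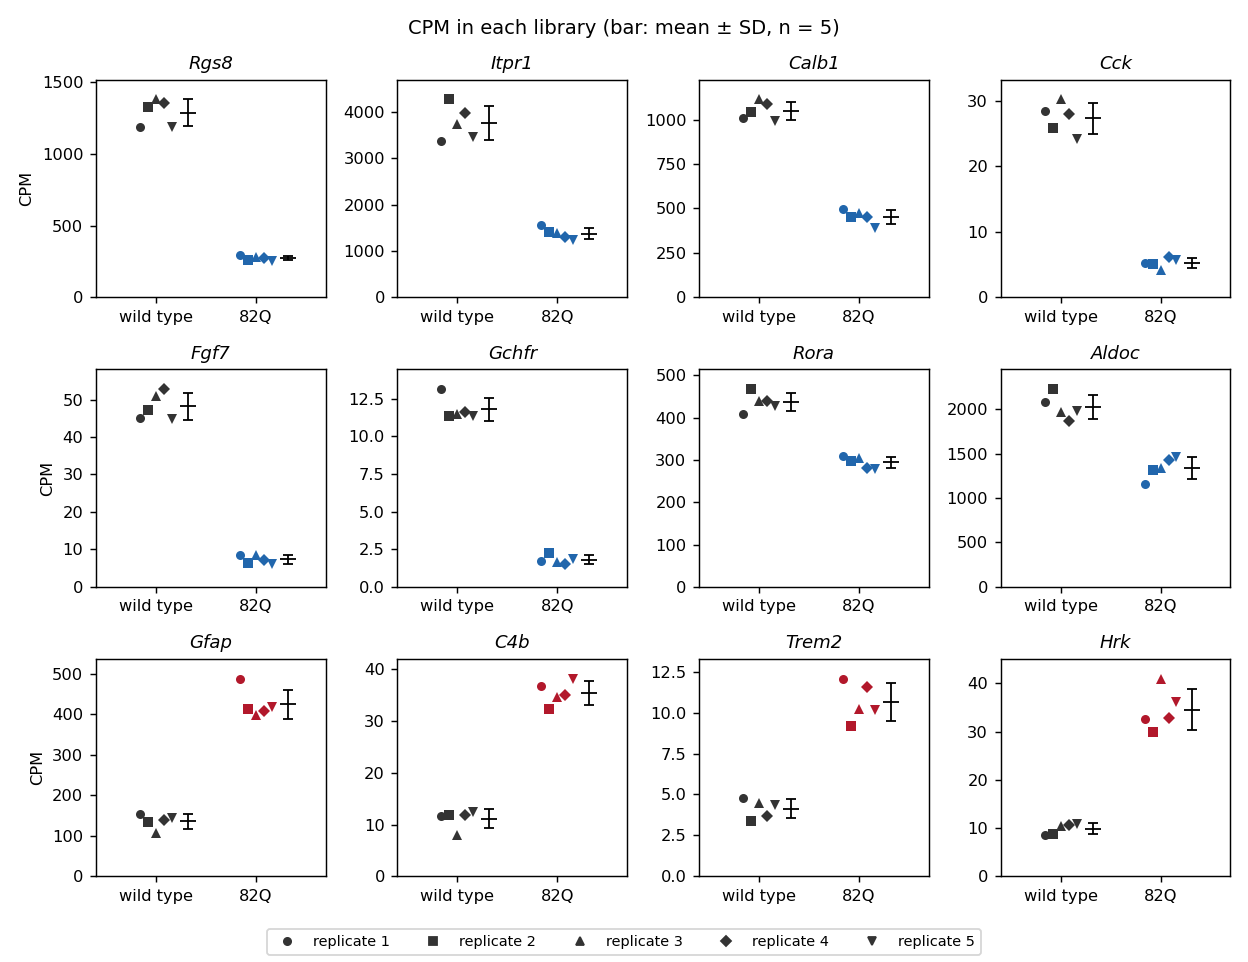
CPM of 12 genes in each library, with the marker shape giving the replicate number and the bar the mean ± SD (n = 5); each y axis starts at 0. The groups do not overlap for any of the 12 genes: 8 are lower in ATXN1[82Q] and 4 higher.

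Most genes of the cascade from metabotropic glutamate receptors to the IP3 receptor fell. Of 24 genes, all tested, 20 were lower and 1 higher (16.6% of all genes were higher), with a median log2 fold change of -0.78. Among the transducers, Gnaq, the G-protein alpha subunit, had a log2 fold change of -0.37, while its close relative Gna11 stood at -0.02 and was not called (adjusted p = 0.638). Of the phospholipases that make IP3, Plcb3 fell by 1.03 and Plcb4 by 0.43 log2 units.

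The largest fall of the cascade was that of Rgs8, given above, which acts on the G-protein. Among the later steps, Itpr1, the IP3 receptor that releases stored calcium, stood at 3379, 4275, 3744, 3990 and 3458 CPM in wild type and 1555, 1399, 1379, 1300 and 1228 CPM in ATXN1[82Q] (log2 fold change -1.46, SE 0.09, adjusted p = 4.26e-09). Car8, which encodes a protein that lowers the affinity of that receptor for IP3, fell from 1298 ± 63.6 to 462 ± 44.7 CPM (-1.49, adjusted p = 7.68e-10). Both genes were lower in all 5 ATXN1[82Q] libraries than in any wild type library. The enzymes that remove IP3 fell as well, the kinase Itpka by 1.72 and the phosphatase Inpp5a by 1.12 log2 units. Of the scaffolds, Shank2 fell by 0.87 and Shank1 by 0.41 log2 units, Homer1 had a log2 fold change of -0.14 and was not called, and Homer2 was the one gene called higher (0.18, adjusted p = 0.0235). Homer2 was not called without ATXN1[82Q] replicate 1 or 5 or wild type replicate 2, 3 or 4 (adjusted p from 0.0517 to 0.0646), nor without both brainstem libraries (0.14, adjusted p = 0.143).

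Calcium buffers, pumps and sensors followed the same direction, with 23 of 29 genes lower, 1 higher and a median log2 fold change of -0.38. Among the pumps that refill internal stores, Atp2a3 (SERCA3) fell from 328 ± 17.1 to 97.8 ± 10.9 CPM (-1.75, adjusted p = 1.36e-09), and the more abundant Atp2a2 (SERCA2) from 1306 ± 96.7 to 818 ± 46.7 CPM (-0.67). Of the pumps in the plasma membrane, Atp2b2 fell by 0.70 log2 units and Atp2b1 was not called (-0.10, adjusted p = 0.175). The sensor gene Hpcal1 fell by 1.60 and Ncald by 0.75, while their relative Hpca had a log2 fold change of -0.05 and was not called. The calmodulin genes Calm2 and Calm3 were lower by 0.52 and 0.13 log2 units. The ryanodine receptor genes went different ways: Ryr1 and Ryr2 were lower (-0.30 and -0.38) and Ryr3 was the one gene of this list called higher (0.61, SE 0.13, adjusted p = 0.0018). Ryr1 was not called without both brainstem libraries (-0.21, adjusted p = 0.0519), and 3 genes of the list were called higher without wild type replicate 5.

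Ion channel genes were called in both directions. Of 15 voltage-gated calcium channel genes, 7 were lower and 4 higher. Cacna1g, the T-type channel Cav3.1, fell from 343 ± 25.8 to 146 ± 9.10 CPM (-1.23, adjusted p = 5.45e-08). Cacna1a, the P/Q-type channel that carries most calcium current of Purkinje cells, fell less, from 506 ± 41.2 to 412 ± 21.3 CPM (-0.30, adjusted p = 0.000445), together with its auxiliary subunits Cacnb4 (-0.51) and Cacna2d2 (-0.48). The R-type channel gene Cacna1e was higher (0.44, adjusted p = 0.00106), and its groups did not overlap. The higher calls of this list numbered 1 or 2 when one of wild type replicates 1, 3 or 4 or ATXN1[82Q] replicate 3 was left out.

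Of 36 potassium channel genes and subunits, 16 were lower and 6 higher, the latter near the 16.6% of all genes called higher. Kcnab1, an auxiliary subunit of Kv1 channels, stood at 171, 170.2, 192, 187 and 165 CPM in wild type and 78.5, 83.1, 71.3, 68.3 and 67.4 CPM in ATXN1[82Q] (-1.26, adjusted p = 1.49e-09). Kcnip1, an auxiliary subunit of Kv4 channels, fell by 1.01 log2 units, and Kcnma1, the BK channel that shapes Purkinje cell firing, by 0.83. The fast-firing channel gene Kcnc1 (Kv3.1) fell by 0.46. The Kv1 pore genes Kcna1 and Kcna2 were not called (-0.07 and 0.10). Among the higher genes, the SK channel genes Kcnn2 and Kcnn3 had log2 fold changes of 0.30 and 0.35. Kcnq5 and Kcnc2 had the largest rises of the list (1.15 and 0.92). Without both brainstem libraries these 2 and Kcnn3 were not called (0.50, 0.41 and 0.28, adjusted p = 0.102, 0.149 and 0.11), and the higher calls numbered 3.

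Sodium and HCN channel genes numbered 10 lower and 3 higher of 17 tested out of 18 listed. Scn2a1 and Scn8a, which encode the channels Nav1.2 and Nav1.6, fell by 0.53 and 0.21 log2 units. Scn3b, an auxiliary subunit, rose from 4.61 ± 0.666 to 8.27 ± 2.42 CPM (0.84, adjusted p = 0.000563; 0.56 without both brainstem libraries).

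At the excitatory synapses onto Purkinje cells, 19 of 27 receptor and adhesion genes were lower and 4 higher, with a median log2 fold change of -0.23. Cbln1, a synaptic organiser released by granule cells, had a log2 fold change of -0.20 (adjusted p = 0.0196), and was not called without wild type replicate 3 (-0.16, adjusted p = 0.0604), without both brainstem libraries (-0.18, adjusted p = 0.0755) or in the libraries with Ttr under 100 CPM (adjusted p = 0.163). The AMPA receptor auxiliary gene Shisa6 fell by 1.05 and the kainate receptor gene Grik1 by 1.09 log2 units. Of the AMPA receptor pores, Gria1, Gria3 and Gria4 fell by 0.23, 0.34 and 0.23, while Gria2 had a log2 fold change of -0.14 and was not called (adjusted p = 0.167). C1ql1, the ligand that climbing fibres present to Purkinje cells, was higher, at 4.92, 3.41, 3.85, 3.93 and 5.04 CPM in wild type and 5.37, 9.93, 6.17, 5.46 and 8.39 CPM in ATXN1[82Q] (0.74, adjusted p = 0.00242). Its groups did not overlap, and its highest values, 9.93 and 8.39 CPM, were in the brainstem libraries. The same gene is counted among the oligodendrocyte precursor markers below, and which cells carried the rise was not tested. C1ql1, with both brainstem libraries left out, had a log2 fold change of 0.42 (adjusted p = 0.0302), and the higher calls of the synapse list numbered 2.

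Inhibitory transmission showed 10 lower and 7 higher genes of 25 tested out of 26 listed. The falls included both subunits of the GABA-B receptor, Gabbr1 (-0.95) and Gabbr2 (-0.78), and Kctd12 (-1.24), which speeds the desensitisation of that receptor. Gabbr1 went from 885 ± 36.03 to 458 ± 9.82 CPM (adjusted p = 1.50e-08). The GABA-A receptor subunit gene Gabrb2 was lower by 0.36 log2 units. The gene for the vesicular carrier, Slc32a1, and that for the main GABA-making enzyme, Gad1, were not called (0.06 and -0.05). Without both brainstem libraries the higher calls numbered 3, and the glycine receptor gene Glra1, with the largest rise (2.35), then had a log2 fold change of -0.11 (adjusted p = 0.902). Glra1 was also not called without ATXN1[82Q] replicate 2 or 5 or wild type replicate 2 (adjusted p from 0.0576 to 0.0926).

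Among RGS proteins and their binding partners, 4 of 19 genes were lower and 8 higher, in contrast to the 2 large falls of Rgs8 and Gng13. Rgs11 rose from 5.93 ± 0.582 to 10.38 ± 1.498 CPM (0.81, adjusted p = 5.13e-05) and Rgs4 from 19.1 ± 2.61 to 28.9 ± 7.50 CPM (0.60, adjusted p = 0.00421). Rgs7 and its obligate partner Gnb5 were not called (0.05 and -0.02). Rgs4, with both brainstem libraries left out, had a log2 fold change of 0.31 (adjusted p = 0.0471), and the higher calls numbered 4.

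Synaptic vesicle and release genes numbered 14 lower and 3 higher of 27, with a median of -0.20. The falls were small. Snap25, a core protein of vesicle fusion, had a log2 fold change of -0.44 (adjusted p = 1.50e-06), Syt2, a fast calcium sensor of release, -0.55 and Unc13c, a priming factor of granule cell terminals, -0.52. Synaptophysin (Syp), the vesicle membrane protein, stood at 944 ± 27.2 CPM in wild type and 982 ± 18.8 CPM in ATXN1[82Q] and was not called.

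Neuropeptides and their receptors held large changes both ways: 4 of the 20 tested were lower and 5 higher, with 27 listed. Besides Cck, the gene of neuropeptide Y, Npy, fell from 10.2 ± 1.58 to 5.57 ± 0.533 CPM (-0.88, adjusted p = 5.77e-06). Galr1, a galanin receptor, stood at 1.63, 2.02, 2.76, 1.01 and 1.81 CPM in wild type and 7.89, 5.67, 7.24, 6.26 and 6.14 CPM in ATXN1[82Q] (1.85, SE 0.26, adjusted p = 5.03e-05). Every ATXN1[82Q] library was above every wild type library for Galr1. Adcyap1, the precursor of PACAP, rose by 1.98 log2 units from 0.756 ± 0.110 to 2.98 ± 2.10 CPM, with ATXN1[82Q] values of 1.06, 3.82, 1.08, 2.85 and 6.09 CPM. Its log2 fold change was 1.13 without both brainstem libraries (adjusted p = 0.0175), and it was not called in the libraries with Ttr under 100 CPM (0.56, adjusted p = 0.146). The higher calls of the list numbered 9 without ATXN1[82Q] replicate 1 and 8 without replicate 3.

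Transcription factors of Purkinje cells and other neurons numbered 9 lower and 4 higher of 26. Apart from Rora, the falls included the LIM homeobox genes Lhx5 (-0.93) and Lhx1 (-0.81), which specify Purkinje cells, the early B-cell factors Ebf2 (-1.14) and Ebf1 (-0.34), and the corepressor gene Skor2 (-0.67). Ebf2, which marks a subset of Purkinje cells, stood at 15.2 ± 2.5 CPM in wild type and 6.86 ± 0.904 CPM in ATXN1[82Q] (adjusted p = 1.74e-06). Mef2a, a calcium-regulated factor, stood at 209 ± 8.92 and 209 ± 10.2 CPM and was not called.

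Genes listed as CIC targets moved both ways. Of 18, all tested, 6 were lower and 2 higher, shares of the list to be read against 14.9% and 16.6% of all genes, and the median log2 fold change was -0.23. Among the ETS factors, Etv4 stood at 16.9, 22.2, 15.6, 16.4 and 17.6 CPM in wild type and 10.0, 9.76, 10.2, 12.02 and 10.6 CPM in ATXN1[82Q] (-0.75, adjusted p = 1.03e-05), without overlap, and Etv1 fell from 483 ± 55.2 to 308 ± 31.6 CPM (-0.65, adjusted p = 9.72e-06). Etv1 is also counted among the granule cell markers below, and what lay behind its fall was not tested. Among the phosphatases that end ERK signals, Dusp4 and Dusp6 fell by 0.90 and 0.39 log2 units. Dusp6 was not called without both brainstem libraries (-0.33, adjusted p = 0.0518). The cyclin genes Ccnd1 and Ccnd2 were the 2 higher genes (0.47 and 0.59). The ERK inhibitor gene Spred2 was not called (-0.16, adjusted p = 0.257). Without wild type replicate 5, 9 genes of the list were called lower.

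The CIC octamer, searched as TGAATGAA on both strands in the 250 bases before each RefSeq start site (GRCm38.p6), lay in 117 of 15097 promoters of genes tested (0.775%). Of the 15 promoters found for 11 of the CIC target genes, 1 held it, that of Spred3, an ERK inhibitor that was not called (log2 fold change -0.22, adjusted p = 0.107; called lower without wild type replicate 5, -0.30, adjusted p = 0.0105). That stretch is shown because it carries the octamer, in capitals, 10 bases before the start site, at chr7:29168648-29168697 on the minus strand.
Spred3: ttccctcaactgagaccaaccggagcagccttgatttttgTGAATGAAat
None of the 32 promoters found for 20 of the Purkinje cell markers held these letters. For the 349 genes (2.2% of those tested) lower by over 1.5-fold, the octamer lay in 2 of 343 promoters (0.583%). For the 946 genes (5.97%) higher by over 1.5-fold, it lay in 12 of 823 (1.46%), against 0.775% of all. A variant, TGAATGGA, lay in 96 of the 15097 promoters (0.636%) and in 1 of the 15 of CIC targets, that of Fos. All these counts in the smaller sets are low.

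Of the genes mutated in inherited ataxias, 12 of 29 tested out of 32 listed were lower and 1 higher. Besides Car8, Itpr1, Cacna1g and Cacna1a, they included Fgf14, a sodium channel partner, which went from 75.0 ± 6.89 to 56.8 ± 7.83 CPM (-0.40, adjusted p = 0.00103). The fatty acid elongase gene Elovl5 was the one higher gene (0.16, adjusted p = 0.000803), and Eef2, an elongation factor of translation, was not called (-0.01).

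Microglial genes rose as a group. All 17 markers of resting and activated microglia, every one of them tested, were higher, against 16.6% of all genes called higher, their median log2 fold change being 0.64, with no overlap between the groups in any of the 17. The mean of the list stood 0.80, 0.64, 0.66, 0.59 and 0.71 log2 units above the wild type mean in the 5 ATXN1[82Q] libraries. All 17 were called without both brainstem libraries. Among the smaller rises were those of P2ry12, a nucleotide receptor of resting microglia, by 0.38, Sall1, a factor of microglial identity, by 0.38, and Tmem119, a surface marker, by 0.49 log2 units. Cx3cr1, the fractalkine receptor, rose by 0.83, and Ctss, the protease cathepsin S, by 0.98, from 30.4 ± 2.52 to 59.8 ± 2.29 CPM. Csf1r (log2 fold change 0.76) shares exon bases with Hmgxb3.

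Genes that microglia switch on in disease included larger rises. Of 25, all tested, 23 were higher and none lower, with a median log2 fold change of 0.75. Itgax, an integrin of activated microglia (CD11c), stood at 0.327, 0.107, 0.108, 0.353 and 0.327 CPM in wild type and 2.84, 1.61, 1.84, 1.93 and 1.96 CPM in ATXN1[82Q] (3.03, SE 0.28, adjusted p = 4.98e-07). Cst7, a cathepsin inhibitor, stood at 0.0754, 0.0537, 0.135, 0.0504 and 0.101 CPM and 1.33, 0.709, 0.789, 0.750 and 0.699 CPM (3.31, SE 0.39, adjusted p = 5.96e-06). Trem2, the lipid-sensing receptor needed for the disease state of microglia, stood at 4.77, 3.38, 4.47, 3.70 and 4.38 CPM and 12.1, 9.17, 10.2, 11.6 and 10.1 CPM (1.36, SE 0.11, adjusted p = 1.13e-07). In each of the 3 genes all ATXN1[82Q] libraries were above all wild type libraries, and replicate 1 was the highest. Clec7a, a pattern receptor, and Lpl, a lipase, rose by 2.35 and 2.15 log2 units, and Tyrobp, the signalling partner of Trem2, by 1.18. Apoe, a lipid carrier made mostly by astrocytes in healthy tissue, rose from 1034 ± 80.7 to 1656 ± 61.3 CPM (0.68, adjusted p = 1.11e-07). The abundant cathepsin genes Ctsb and Ctsl were the 2 not called (0.04 and -0.03). Ctsb shares exon bases with Fdft1.

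**Figure D3:**
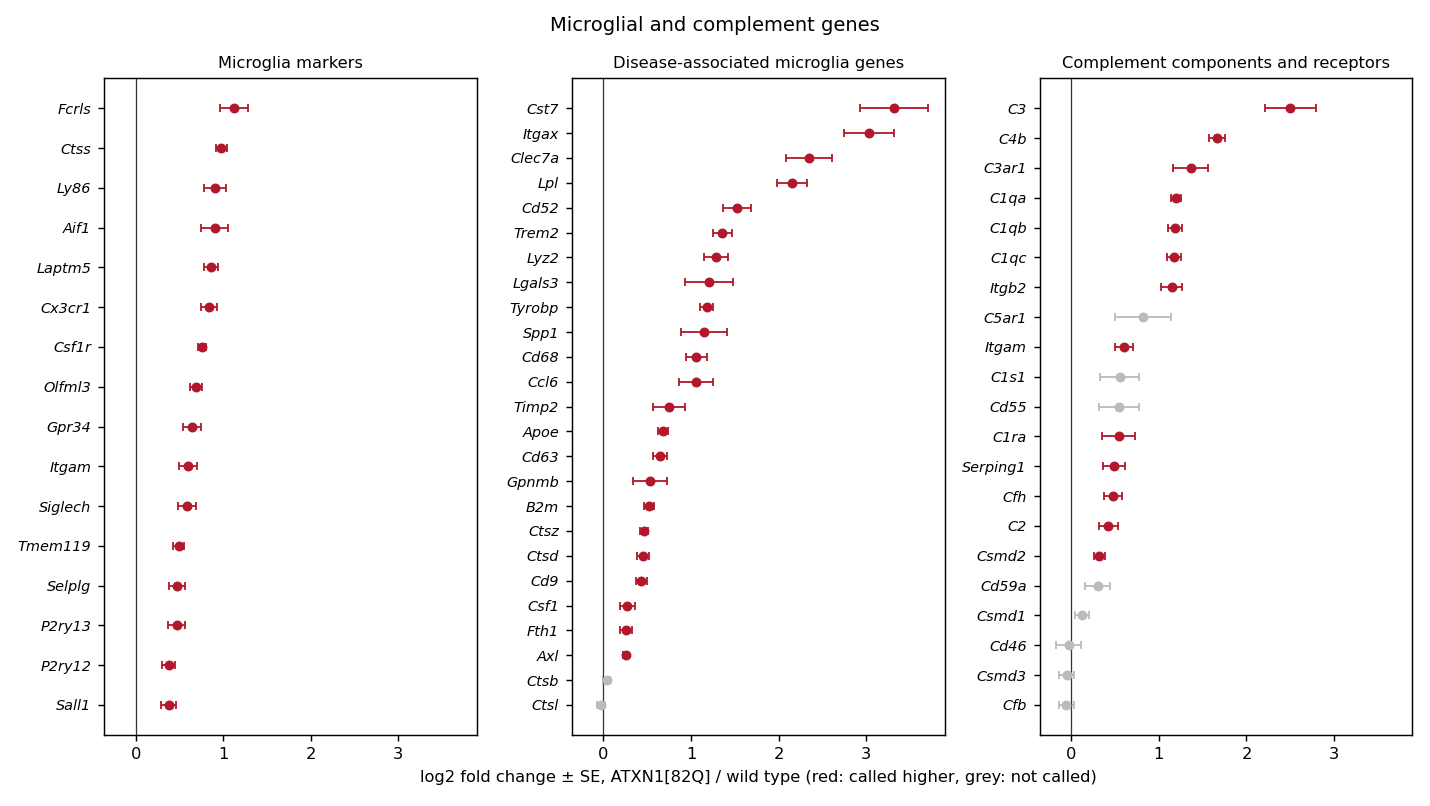
Log2 fold change (ATXN1[82Q] over wild type) ± SE of tested genes of 3 lists, ordered by size, with called genes in red and others in grey. The microglia markers lie between 0.38 and 1.12, whereas Cst7, Itgax, Clec7a and Lpl of the disease-associated list lie above 2.

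Complement, the cascade of opsonins with which microglia tag synapses and debris, rose in 13 of 21 genes with none lower, and the count stood at 13 without both brainstem libraries. C1qa, C1qb and C1qc, the 3 chains of the initiating protein C1q, rose by 1.20, 1.19 and 1.17 log2 units. C4b, the next component, stood at 11.7, 11.9, 8.07, 11.8 and 12.4 CPM in wild type and 36.8, 32.3, 34.7, 35.1 and 38.2 CPM in ATXN1[82Q] (1.66, adjusted p = 1.36e-09), and C3, the central component, rose from 0.736 ± 0.242 to 4.20 ± 1.26 CPM (2.502, SE 0.29, adjusted p = 4.89e-06). Their receptors rose too, C3ar1 by 1.36, Itgb2 by 1.15 and Itgam by 0.60 log2 units. Csmd1, a membrane inhibitor of the cascade, was not called (0.12).

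Antigen presentation genes were higher in 12 of 19 and lower in 1. Of the class II genes, Cd74, the invariant chain, rose from 4.97 ± 0.709 to 11.2 ± 1.74 CPM (1.17, adjusted p = 9.57e-07) and H2-Aa from 3.88 ± 0.675 to 7.32 ± 1.48 CPM (0.91, adjusted p = 0.00028). Of class I, B2m and H2-K1 rose by 0.52 and 0.44 log2 units, whereas H2-D1, another heavy chain, was lower, at 116, 111, 106, 111 and 115 CPM in wild type and 72.0, 66.1, 67.9, 74.0 and 74.4 CPM in ATXN1[82Q] (-0.66, adjusted p = 1.78e-07). Heavy chain genes are near copies of each other and share reads, so the split between H2-K1 and H2-D1 is uncertain.

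Interferon response genes were higher in 16 of the 21 tested, with none lower, a median log2 fold change of 0.61 and 22 genes listed. Per library the mean of the list lay 0.46, 0.52, 0.75, 0.54 and 0.43 log2 units above wild type, highest in replicate 3. The levels were low: Ifit1, which binds foreign RNA, stood at 2.06, 2.39, 2.36, 1.28 and 1.71 CPM in wild type and 3.00, 3.01, 4.01, 4.04 and 2.48 CPM in ATXN1[82Q] (0.76, adjusted p = 0.00502). Oasl2, an antiviral synthetase-like protein, rose by 0.94 log2 units (adjusted p = 0.000271), Trim30a by 0.74, and the ubiquitin-like Isg15 by 0.69. In the 2 ATXN1[82Q] and 3 wild type libraries with Ttr under 100 CPM, 9 of the genes were called higher.

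Promoters of these genes often hold the interferon response element, searched on both strands as GAAA, any 2 bases and GAAA. It lay in 7 of the 19 promoters (36.8%) found for 16 of the genes, and in 2.48% of all 15097 promoters. The stretches around it in 5 genes that rose are shown because the genes moved together. The element is in capitals, overlapping copies run together, and TTTC, 2 bases and TTTC are the same element on the other strand.
Ifit1, chr19:34640745-34640834, plus strand: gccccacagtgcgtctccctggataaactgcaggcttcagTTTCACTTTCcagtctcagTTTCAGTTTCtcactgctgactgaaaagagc
Ifit3, chr19:34583333-34583422, plus strand: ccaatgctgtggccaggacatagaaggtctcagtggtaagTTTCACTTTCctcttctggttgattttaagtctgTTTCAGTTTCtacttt
Isg15, chr4:156200847-156200936, minus strand: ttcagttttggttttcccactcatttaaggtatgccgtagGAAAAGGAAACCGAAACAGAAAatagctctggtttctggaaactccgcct
Oas1a, chr5:120907526-120907585, minus strand: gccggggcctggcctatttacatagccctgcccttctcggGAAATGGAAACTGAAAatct
Trim30a, chr7:104465194-104465269, minus strand: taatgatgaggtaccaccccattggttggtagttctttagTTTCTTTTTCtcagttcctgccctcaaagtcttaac
Ifit1 and Ifit3 each hold 2 separate copies, Isg15 and Oas1a runs of overlapping copies, and Trim30a 1 copy. A match of letters is no measure of binding.

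Lysosomal genes were higher in 20 of 34 and lower in 1, with a median of 0.18. Rises were largest in the genes that the microglial lists also hold (Cd68 1.06, Ctss 0.98, Cd63 0.64) and in the cathepsin gene Ctsh (0.71). Smaller rises included Ctsd (0.45), Grn (0.27), the progranulin gene, and Npc1 (0.20), a cholesterol exporter of lysosomes. Psap, the precursor of the saposins and the most abundant gene of the list in counts, stood at 1655 ± 55.7 CPM in wild type and 1669 ± 39.3 CPM in ATXN1[82Q] and was not called.

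Astrocyte transcripts divided. Of 23 reactive astrocyte genes 20 were tested, and 15 were higher and none lower, with a median of 0.57. Gfap, the intermediate filament of reactive astrocytes, stood at 155, 135, 107, 139 and 145 CPM in wild type and 488, 412, 398.1, 408 and 418 CPM in ATXN1[82Q] (1.64, SE 0.09, adjusted p = 1.36e-09), and the lowest ATXN1[82Q] library was more than 2-fold above the highest wild type library. Aspg, Cd44 and Serpina3n rose by 1.02, 0.76 and 0.51 log2 units. Vim, another intermediate filament, had a log2 fold change of 0.23 and was not called (adjusted p = 0.0624), but was called higher without both brainstem libraries (0.35, adjusted p = 0.0049) and without replicate 5 alone (0.31, adjusted p = 0.00671).

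Of 20 Bergmann glia and astrocyte markers, 9 were higher and 5 lower. Aldoc, a glycolytic enzyme of astrocytes and of one class of Purkinje cells, stood at 2088, 2229, 1967, 1870 and 1985 CPM in wild type and 1157, 1315, 1337, 1431 and 1463 CPM in ATXN1[82Q] (-0.60, adjusted p = 2.07e-05). Slc1a3, the glutamate transporter GLAST of Bergmann glia, fell from 1750 ± 94.2 to 1318 ± 90.6 CPM (-0.41, adjusted p = 1.72e-05), whereas Slc1a2, the transporter GLT-1 of other astrocytes, was higher (0.16, adjusted p = 0.0148; 0.11 and adjusted p = 0.121 without both brainstem libraries). The water channel gene Aqp4 and the gap junction gene Gja1 rose by 0.58 and 0.53 log2 units, without overlap. S100b, a calcium-binding protein of astrocytes, was not called (-0.03). Leaving out both brainstem libraries gave 6 higher calls in the list.

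**Figure D4:**
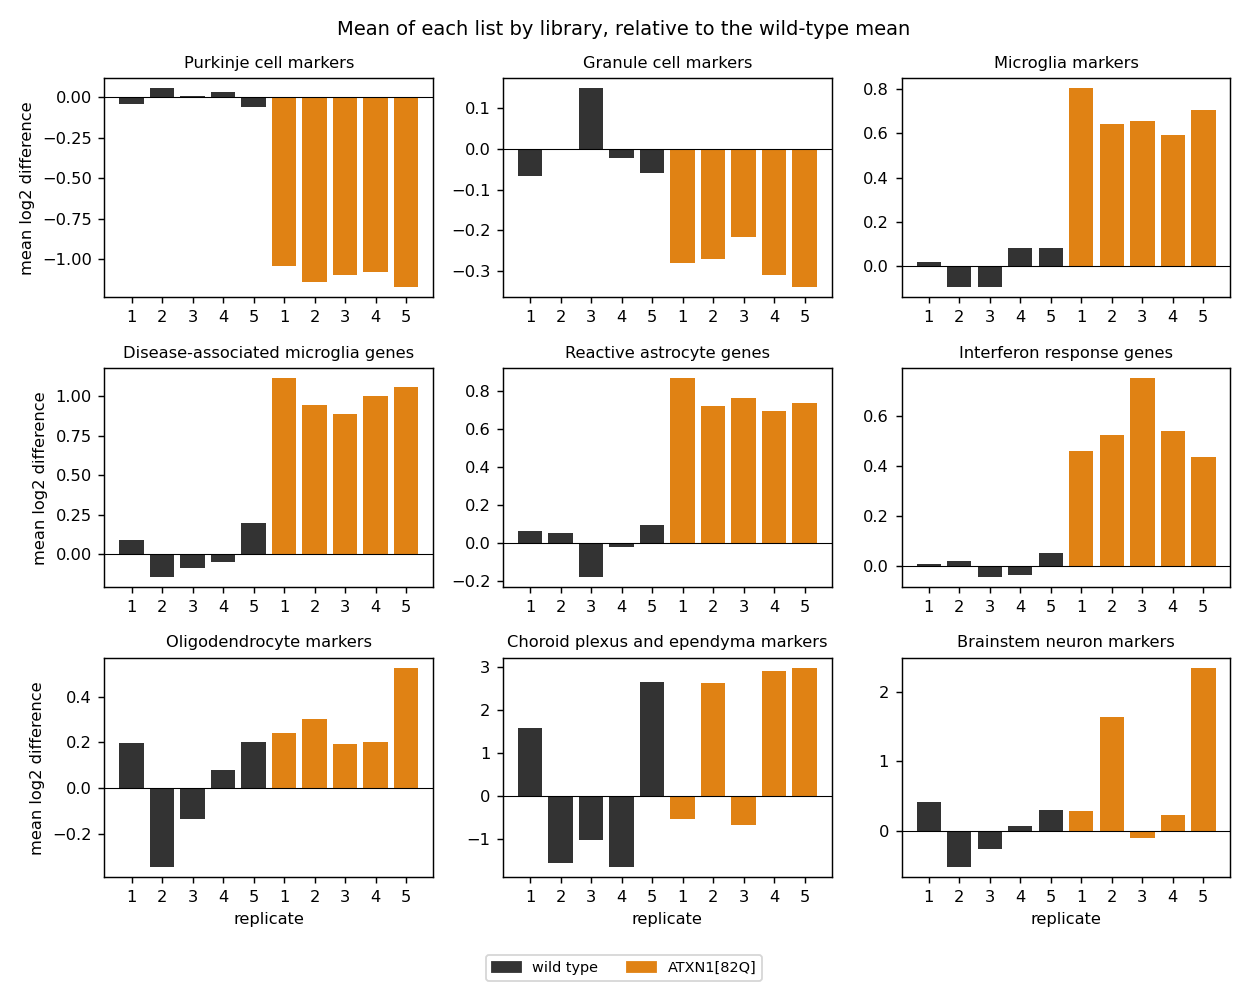
Mean log2 difference of each library from the wild type mean over the tested members of 9 lists, with replicates 1 to 5 on the x axis, wild type in dark grey and ATXN1[82Q] in orange; y ranges differ between panels. The first 6 lists separate the groups in every library, whereas the choroid plexus list follows the libraries with high Ttr in both groups and the brainstem list is high in ATXN1[82Q] replicates 2 and 5.

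Granule cell markers were lower in 13 of 18, with none higher, and the sizes were small (median log2 fold change -0.20). Gabra6, the GABA-A receptor subunit specific to these cells, stood at 1237, 1284, 1436, 1322 and 1120 CPM in wild type and 955, 976, 949, 863 and 786 CPM in ATXN1[82Q] (-0.50, adjusted p = 3.27e-05). Calb2, the buffer calretinin, fell by 0.54 log2 units, and Cbln3, a partner of Cbln1, by 0.45. Fat2, a giant cadherin of granule cells, stood at 713 ± 82.3 CPM in wild type and 666 ± 25.5 CPM in ATXN1[82Q] and was not called (adjusted p = 0.293).

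Interneuron markers of the molecular layer and Golgi cells were higher in 8 of 15, with none lower and a median of 0.19. Kit, a receptor of molecular layer interneurons, and Grm2, a receptor of Golgi cells, rose by 0.22 and 0.27 log2 units, and Nxph1, a neurexin ligand, by 0.45. Sst, the somatostatin gene, rose by 1.39 log2 units, with ATXN1[82Q] values of 2.92, 4.92, 2.60, 7.81 and 8.48 CPM. In the libraries with Ttr under 100 CPM, 2 genes of this list were called higher, and Sst had a log2 fold change of 0.45 (adjusted p = 0.445).

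Oligodendrocyte markers were higher in 9 of 15 and precursor markers in 6 of 9, with none lower. Mbp, the main myelin protein gene, stood at 3668, 2453, 2870, 3390 and 3554 CPM in wild type and 3800, 4230, 3704, 3748 and 4707 CPM in ATXN1[82Q] (0.34, adjusted p = 0.0102). Wild type replicate 2 was the lowest and ATXN1[82Q] replicate 5, a brainstem library, the highest. Mbp, with both brainstem libraries left out, was not called (0.23, adjusted p = 0.0949), and the lists held 2 and 3 higher genes. The higher calls of the 15 markers numbered 4 when wild type replicate 2 or 3 or ATXN1[82Q] replicate 5 was left out. Cldn11, a myelin tight junction gene (0.40, adjusted p = 0.000503), and Gpr17, a receptor of maturing precursors (0.46, adjusted p = 0.000213), had the lowest adjusted p of the 2 lists.

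Markers of vessels, blood and tissue borders held few calls. Endothelial and mural markers were higher in 3 of 14, near the 16.6% of all genes called higher: Vtn (0.57) and Pdgfrb (0.41), both of pericytes, and the channel gene Kcnj8 (0.36), which was not called without ATXN1[82Q] replicate 4 or wild type replicate 4. The endothelial genes Flt1 and Slco1a4 were not called (0.04 and 0.04). Of 14 leukocyte markers 6 could be tested, with a median log2 fold change of 0.16. Mrc1, a receptor of border macrophages, was the one called, higher by 1.02 log2 units (4.78 ± 0.551 to 9.72 ± 1.48 CPM). Cd163, also a macrophage receptor, went the other way and was not called (-0.33, adjusted p = 0.0786). Of 5 blood markers only Alas2 was tested, and it was not called.

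Of 13 choroid plexus and ependyma markers, 4 were higher, 3 of which belong to motile cilia of the ependyma: Tmem212 (1.82), Ccdc153 (1.65) and Foxj1 (1.36). Tmem212 stood at 1.48, 0.295, 0.217, 0.403 and 1.76 CPM in wild type and 2.79, 2.54, 2.08, 4.76 and 2.71 CPM in ATXN1[82Q]. The groups did not overlap, and replicates 1 and 3 of ATXN1[82Q], low in Ttr, were above every wild type library. Foxj1 was not called without both brainstem libraries (1.15, adjusted p = 0.0691). Of 26 brainstem neuron markers only 8 could be tested, 5 were higher, and none of the 5 was called higher without both brainstem libraries. Dbh, the enzyme of noradrenaline synthesis, then went from a log2 fold change of 2.75 to -0.02 (adjusted p = 0.99). Leaving out ATXN1[82Q] replicate 5 alone gave 1.48 (adjusted p = 0.162), and the call of Dbh was also lost without wild type replicate 2, 3 or 4 (adjusted p from 0.0503 to 0.0618). The higher calls of the brainstem list numbered 1 without ATXN1[82Q] replicate 5 and 3 without wild type replicate 2.

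Apoptosis regulators of the BCL2 family changed in both directions. Of 17 genes tested out of 18 listed, 6 were higher and 4 lower. Hrk, a pro-apoptotic member of neurons, stood at 8.52, 8.81, 10.4, 10.7 and 10.9 CPM in wild type and 32.6, 29.97, 40.9, 32.8 and 36.2 CPM in ATXN1[82Q] (1.81, SE 0.17, adjusted p = 4.21e-07). Every ATXN1[82Q] library was above every wild type library for Hrk. The pro-apoptotic Bmf, Bbc3 and Bcl2l11 rose by 0.57, 0.55 and 0.44 log2 units, and the anti-apoptotic Bcl2l1 and Bcl2l2 fell by 0.23 and 0.22. Bax and Mcl1 were not called (-0.01 and 0.03).

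Besides these, the 15 largest rises among protein-coding genes at 2 log2 CPM or more held several genes outside the lists. Coch, a secreted matrix protein, rose by 1.51, and Padi2, which converts arginine to citrulline in oligodendrocytes and astrocytes, by 1.27 log2 units. Coch stood at 6.05, 7.01, 5.74, 5.17 and 8.38 CPM in wild type and 20.7, 16.7, 17.9, 18.4 and 18.6 CPM in ATXN1[82Q]. Mxra7 rose by 1.25, D430019H16Rik by 1.62, Cd24a by 1.34 and Basp1 by 1.22. Basp1 and Cd24a were uneven across the ATXN1[82Q] libraries, at 9.56, 15.9, 11.5, 15.9 and 29.1 CPM and 14.6, 37.0, 14.3, 18.9 and 27.4 CPM, with a brainstem library highest in each. Without both brainstem libraries their log2 fold changes were 0.81 and 0.84. As for the falls, genes whose groups overlap could not enter this choice.

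Matrix genes showed 6 higher and 5 lower of 19 tested out of 20 listed. Hapln4, the link protein of nets around inhibitory terminals of the cerebellar nuclei, fell by 0.46 log2 units, while the lectican gene Bcan rose by 0.42 and its link protein partner Hapln1 by 0.47. Axon guidance genes numbered 7 higher and 6 lower of 33, near the shares of all genes (16.6% and 14.9%). Sema7a, a membrane semaphorin, fell from 285 ± 30.5 to 157 ± 12.2 CPM (-0.86, adjusted p = 5.39e-07), and Robo2, a Slit receptor, by 0.44 log2 units. The netrin receptor genes Unc5b and Unc5c were not called. With both brainstem libraries left out, 4 guidance genes were higher.

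Housekeeping and stress lists held called genes at a share near or below that of all genes. Of 31 proteasome subunit genes none was called, against 31.5% of all genes. Of 47 respiratory chain genes 6 were lower and none higher, none by more than 0.18 log2 units (Cox8a, -0.18). Cholesterol synthesis genes were lower in 5 of 22, led by Idi1 (-0.40, adjusted p = 0.00456), and none was higher. Cytosolic ribosomal protein genes were higher in 11 of 53 tested out of 54 listed, led by Rpl23 at 0.19, and the count ran from 4 (without wild type replicate 3) to 17 (without wild type replicate 1). Of 26 heat shock chaperone genes 3 were higher and 3 lower, and the abundant Hspa8 and Hsp90ab1 were not called (-0.07 and -0.01). In the unfolded protein and integrated stress response 6 of 25 genes were higher and 2 lower, about the share of all genes called, with rises in the serine synthesis genes Phgdh (0.48) and Psat1 (0.29) and in the stress kinase gene Eif2ak3 (0.38). Immediate early genes, 19 tested out of 20 listed, numbered 3 higher and 2 lower, with Jun at 0.60 (adjusted p = 9.97e-05) and Jund at 0.48, while Egr1, at -0.44, was not called when any library but ATXN1[82Q] replicate 5 and wild type replicates 1 and 2 was left out (adjusted p from 0.0549 to 0.102).

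**Figure D5:**
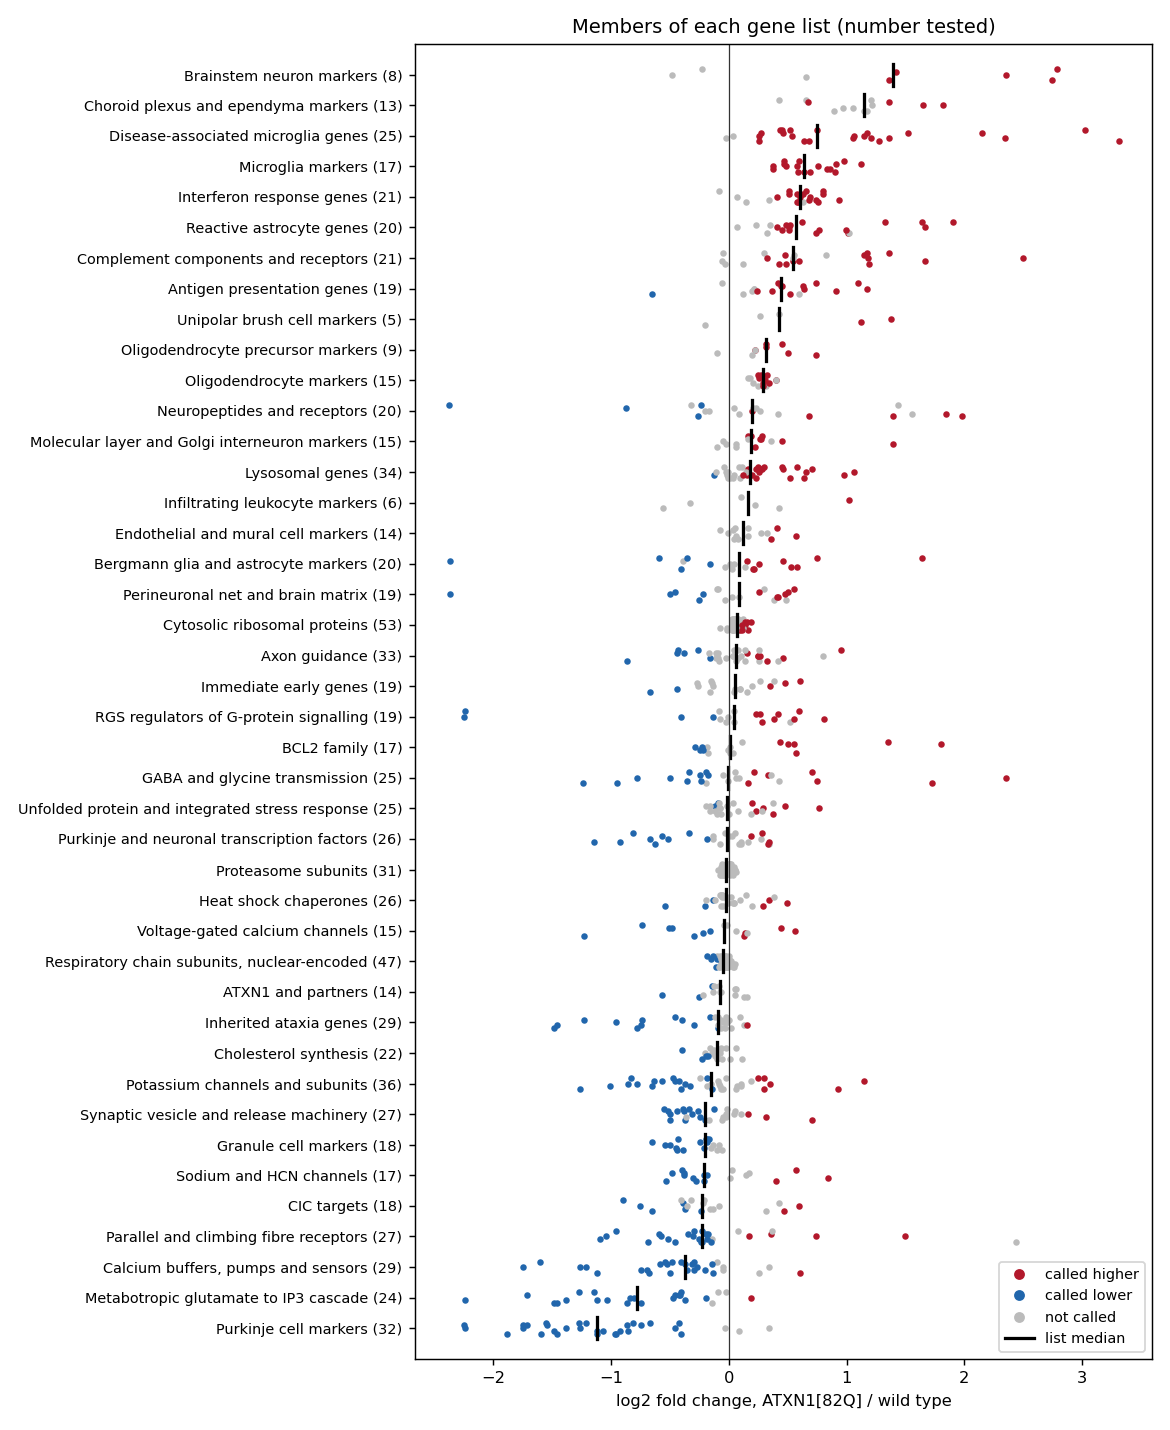
Log2 fold change (ATXN1[82Q] over wild type) of every tested member of 42 gene lists, ordered by list median (black line), with red for called higher, blue for called lower and grey for not called; the number tested follows each name. Purkinje cell markers (median -1.12) stand at the bottom, and the brainstem, choroid plexus and microglial lists at the top.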

How the data were processed

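RNA of cerebella was sequenced in 15 libraries, 5 per genotype. Per the labels' protocols, cDNA was made from 10 ng of total RNA with both poly(A) and random primers. The submitters' processing notes name STAR 2.5.3a, HTSeq, DESeq2 and mm10. The authors deposited whole-number counts per gene, not normalised. Whether counting used strand, and by which mode and annotation, the sources used here do not say, so overlapping and antisense genes may share or lose counts. Per the deposited count tables, 17.1% to 18.2% of reads in the 10 libraries compared were assigned to no gene feature; these entries were left out of library sizes.

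Groups came from genotype labels. Counts were tested with edgeR 4.0.16 (R 4.3.3; TMM, filterByExpr with a minimum count of 10, quasi-likelihood F-test), with all 15 libraries in one fit so that the third genotype adds to the estimate of spread, and Benjamini-Hochberg adjustment over 15843 genes. SE is the size of the log2 fold change divided by the square root of F. Log2 CPM used a prior count of 2. The fit was tested on simulated data. The common biological coefficient of variation was 0.102. The labels name no molecular identifiers, so reads are not taken as independent molecules.

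The members and the 43 gene lists were chosen with earlier results of these data known. Named genes were 15 rises and 15 falls, those of greatest log2 fold change in protein-coding genes that were called, averaged at least 2 log2 CPM and did not overlap between groups, per list up to 6 called genes with the largest change and up to 2 of the most abundant not called, and Atxn1, Atxn1l, Cic, Pcp2, Calb1, Itpr1, Rora, Cck, Gfap, C4b, Trem2, Apoe, Mbp, Gabra6, Aldoc and Ttr in any case. Further list members, such as subunits and counterparts of these, were chosen after their values were seen. Values of some single genes are not reported here. Exon overlap came from GENCODE M21 (GRCm38), where 23376 of 24421 symbols matched, with 669 more matching through a synonym. Promoters came from RefSeq (GRCm38.p6), found for 11865 genes tested. Alternatives were DESeq2 1.42.0, other size factors, no filter, only the 2 genotypes in the fit, a replicate block, Xist or Ttr as a covariate, a fit limited to libraries with Ttr under 100 CPM, and leaving out each library or both brainstem libraries.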

Additional observations from a re-analysis of the deposited data

Results flagged for a closer look

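For each gene named, the 5 libraries of a genotype were searched for a value far from the rest: a gap to the nearest library of more than 0.71 of the whole range (Dixon's limit for 5 libraries). Of 462 groups of 5 libraries, 29 passed it; chance alone flags about 1 in 20 groups. No cause of these values was tested.

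ATXN1[82Q] replicate 1 was above the rest of its group in Clec7a at 2.66 CPM (1.48 to 1.64 in the others), Cst7 at 1.33 CPM (0.699 to 0.789 in the others), Gfap at 488 CPM (398.1 to 418 in the others), Gpr17 at 39.1 CPM (29.0 to 31.9 in the others), Itgax at 2.84 CPM (1.61 to 1.96 in the others), Shisa6 at 145 CPM (125 to 129 in the others) and Trabd2b at 7.70 CPM (4.80 to 5.61 in the others). ATXN1[82Q] replicate 2 was above the rest of its group in Ryr3 at 58.0 CPM (46.1 to 49.5 in the others). ATXN1[82Q] replicate 3 was above the rest of its group in Isg15 at 2.27 CPM (1.59 to 1.76 in the others). ATXN1[82Q] replicate 4 was above the rest of its group in Tmem212 at 4.76 CPM (2.08 to 2.79 in the others). ATXN1[82Q] replicate 4 was below the rest of its group in Syt2 at 160 CPM (179.8 to 183 in the others). ATXN1[82Q] replicate 5 was above the rest of its group in Col5a1 at 11.1 CPM (8.44 to 9.14 in the others), Ctsl at 121 CPM (112 to 115 in the others) and Egr1 at 39.3 CPM (22.9 to 25.2 in the others). Clec7a, Cst7 and Itgax, 3 disease-associated microglia genes, stood apart in the same library.

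Wild type replicate 1 was above the rest of its group in Gchfr at 13.1 CPM (11.3 to 11.6 in the others). Wild type replicate 2 was above the rest of its group in Dusp6 at 28.2 CPM (20.2 to 21.8 in the others), Plcb3 at 112 CPM (86.0 to 91.5 in the others) and Trabd2b at 42.9 CPM (33.5 to 35.7 in the others). Wild type replicate 2 was below the rest of its group in Kcnc2 at 3.98 CPM (7.53 to 8.84 in the others) and Rgs4 at 14.5 CPM (19.9 to 21.1 in the others). Wild type replicate 3 was above the rest of its group in Cacna1e at 205 CPM (166 to 177 in the others) and Mxra7 at 9.89 CPM (7.82 to 8.41 in the others). Wild type replicate 3 was below the rest of its group in Alas2 at 5.66 CPM (9.78 to 11.1 in the others), C4b at 8.07 CPM (11.7 to 12.4 in the others) and Pvalb at 819 CPM (897 to 912 in the others). Wild type replicate 4 was above the rest of its group in C3 at 1.16 CPM (0.569 to 0.705 in the others). Wild type replicate 4 was below the rest of its group in Calb2 at 308 CPM (353 to 361 in the others). Wild type replicate 5 was above the rest of its group in Foxj1 at 14.4 CPM (2.95 to 6.21 in the others) and Ttr at 3793 CPM (4.26 to 1090 in the others).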

How the results depend on the processing

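The counts over all genes kept within 1.5 times of their values in every alternative except the one limited to libraries with Ttr under 100 CPM, where 3234 genes were called and 1563 were higher, with 2 ATXN1[82Q] and 3 wild type libraries left. Leaving out 1 library at a time gave 3909 to 5377 genes called, 2033 to 2889 higher, 1876 to 2488 lower, 284 to 539 higher by over 2-fold and 143 to 153 lower by over 2-fold. The 539 came without wild type replicate 5 and the 284 without ATXN1[82Q] replicate 5. Totals of like size can hold different genes. Without both brainstem libraries 3883 genes were called, and 256 of the 371 rises and 140 of the 147 falls by over 2-fold were called again in the same direction. Of all calls, 1764 of the 2635 higher and 1858 of the 2358 lower genes were called again there. In the libraries with Ttr under 100 CPM, 1405 of the higher and 1502 of the lower genes were called again, with 240 of the rises and 128 of the falls by over 2-fold. DESeq2 called 5332 genes. Deviations of same-numbered libraries correlated above 0.1 in 2 of 5 pairs, at 0.137 for replicate 3 and 0.568 for replicate 5. No correlations of differently numbered libraries were set beside them, so this cannot decide whether the replicate number pairs the libraries. With the number as a replicate block 4681 genes were called, 2483 higher and 2198 lower. Of the named genes that were called, Dbh and Glra1 reversed without both brainstem libraries (log2 fold changes -0.0172 and -0.114). None of the called genes reversed under the other alternatives run. Some named genes that were not called changed sign between alternatives, without a call, such as Ttr (-0.125 to 2.99) and Esrrb (-0.185 to 0.0215). Over all named genes and alternatives, 4290 values kept their side of the threshold and, where called, their direction, 81 lost the call and 16 gained it. Choice of size factors moved the median over all genes by at most 0.01 log2 units. In the libraries with Ttr under 100 CPM, with fewer samples, the calls of 21 named genes were lost: Adcyap1, Cbln1, Dbh, Dusp6, Glra1, Gria1, Gria4, Grm2, Hapln1, Isg15, Kcnc2, Kcnn3, Kcnq5, Oas1a, Rbm17, Rgs4, Ryr1, Sall1, Slc1a2, Sst and Trim30a. The low counts behind genes under 2 CPM limit the precision of their values.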

Other observations

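Genes outside the lists also fell at high levels; those named here were chosen after their values were seen. Grid2ip, which encodes delphilin, a scaffold of Purkinje cell synapses, stood at 68.2, 94.7, 76.2, 83.5 and 72.1 CPM in wild type and 26.6, 24.7, 24.3, 25.5 and 23.3 CPM in ATXN1[82Q] (-1.67, edgeR adjusted p = 3.17e-07). Dagla, the enzyme that makes the endocannabinoid released by Purkinje cells, fell from 141 ± 9.47 to 57.1 ± 1.95 CPM (-1.31, adjusted p = 3.88e-08). Icmt, a methyltransferase of prenylated proteins, fell from 573 ± 30.2 to 191 ± 11.3 CPM (-1.58, adjusted p = 2.29e-09), and Igfbp5, a binding protein of insulin-like growth factors, from 413 ± 37.4 to 186 ± 11.7 CPM (-1.15, adjusted p = 4.34e-07). The ATXN1[82Q] libraries were below the wild type libraries without overlap for all 4 genes. Icmt shares 1.95% of its exon bases with Rnf207, which stood at 0.731 ± 0.160 CPM in wild type and 1.52 ± 0.548 CPM in ATXN1[82Q].

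Colec10, a secreted collectin, had no count in any of the 5 wild type libraries and 44 to 71 counts in each ATXN1[82Q] library. Against a floor of 3 counts per wild type library it was at least 17.8-fold higher. In the 5 libraries of the substituted transgene it had 0 to 6 counts.

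Values of 2 axonemal dynein genes, also chosen after they were seen, stand beside those of the ependymal markers and speak for no group of genes. Dnali1, a dynein light chain, stood at 1.71, 0.564, 0.650, 0.983 and 2.06 CPM in wild type and 2.28, 4.06, 2.73, 5.63 and 3.83 CPM in ATXN1[82Q] (1.63, adjusted p = 0.00311), and Dnah1, a dynein heavy chain, rose by 1.25 log2 units (adjusted p = 0.00264). The groups did not overlap for either gene. The highest values of Dnali1 in each group were in libraries rich in Ttr, and the part of choroid plexus tissue in these rises was not tested. Among immune receptors outside the lists, Tlr2 and Cd84 rose by 1.26 and 1.39 log2 units (adjusted p = 0.000107 and 3.39e-06).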
